A study of Mus musculus with 92 samples.

Results

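The genes described here are markers of Kupffer cells, the resident macrophages of the liver, and of the monocyte-derived macrophages that enter the liver from blood. The list holds 39 genes. Symbols were turned into gene identifiers with the symbol column of the authors' comparison tables, and 37 of the 39 had a female count in every library. All 37 passed the low-count filter and were tested among 12617 genes. Lyz2 and H2-Ab1 had no complete line of counts, so only the authors' deposited fold changes are given for them. The 39 genes fall into 7 resident markers, 5 recruited monocyte markers, 4 MHC class II genes, 3 lipid-associated macrophage markers, 3 C1q chains, 5 Fc receptors and adaptors, and 12 markers shared by macrophages.

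Livers came from HET3 mice, a genetically heterogeneous stock in which each animal has its own genotype. Mice ate a Control, a Low Amino Acid or a Low Isoleucine diet and were killed at 6 or 24 months of age, and their livers were taken after a 16 h fast and frozen. The labels place the start of the diet at 9 weeks of age for mice killed at 6 months and at 6 months of age for mice killed at 24 months, whereas the series text gives 13 weeks on diet for both. Age and the start or length of feeding therefore cannot be told apart in the comparisons between ages, including those within a restricted diet. Nothing in the labels describes an added transgene, drug or injury. At 6 months the female groups held 8 Control, 8 Low Amino Acid and 7 Low Isoleucine libraries, after leaving out replicate 3 of the Low Isoleucine group as the rule for this gene list requires. At 24 months they held 8, 7 and 8 libraries. Male counts were not used, because the male columns of the gene table do not line up with its gene names. The median Alb count, from the main plasma protein of hepatocytes, was 1905880 over female columns and 75 over male columns.

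Kupffer cells sit in the liver sinusoids, where they take up bacteria, debris, old red cells and lipoproteins through scavenger, complement and Fc receptors. They are seeded before birth and renew themselves locally, and when they are lost, blood monocytes settle in the empty niche and slowly acquire resident genes such as Clec4f and, last, Timd4. Macrophages fresh from monocytes carry Ccr2, Cx3cr1 and Itgax, and in steatotic liver some take on a lipid-associated state with Trem2, Gpnmb and Lgals3. These data are from whole liver, so fewer cells of a type and less RNA per cell cannot be told apart.

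The female libraries held 7819974 to 27556894 counts in genes, and no member was at 0 in any of the 46 libraries. The lowest count of any member was 1, for Gpnmb. Values are counts scaled to a library total of 1000000 (CPM) with edgeR's TMM factors. Differences are on the log2 scale with the standard error (SE) from edgeR's quasi-likelihood fit over all 46 libraries, and a gene was called at a Benjamini-Hochberg adjusted p under 0.05 over the 12617 genes. Each mouse gave 1 library as far as the labels say, so the spread is that between samples.

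Per kilobase of exon, the 6-month Control livers expressed the secreted resident product Cd5l at 69.4 ± 21.2 CPM per kb, the galactose-binding lectin Clec4f at 51.2 ± 18.2 and the complement receptor Vsig4 at 27.8 ± 12.1 (mean ± SD, n = 8). The haemoglobin scavenger receptor Cd163 stood at 9.99 ± 4.01 CPM per kb, the phosphatidylserine receptor Timd4 at 4.25 ± 1.1, the folate receptor Folr2 at 3.13 ± 1.48 and the scavenger receptor Marco at 2.91 ± 2.35. On this scale the means of the 4 recruited markers with counts were lower than all 7 resident markers. Itgam, the integrin alpha M chain, stood at 0.604 ± 0.134 CPM per kb, the chemokine receptor Ccr2 at 0.488 ± 0.147, the fractalkine receptor Cx3cr1 at 0.237 ± 0.147 and the integrin alpha X chain Itgax at 0.233 ± 0.0984. The shared markers Csf1r, the receptor of the macrophage growth factor CSF1, and Adgre1, which encodes F4/80, stood at 16.9 ± 4.54 and 7.84 ± 2.62 CPM per kb. The defining markers of the label were thus present in every library, with Clec4f at no fewer than 844 counts.

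Promoter sequence is shown for the 5 members whose values the results below turn on most. Marco and Cd163 are the resident markers that moved in opposite directions with age. Fcgr4 is the member called between diets at 24 months with all libraries in the fit. H2-Aa and H2-Eb1 are a pair of MHC class II genes that moved together. RefSeq promoter windows (GRCm38.p6) were matched for 31 of the 39 members by symbol, with 34 windows among them. Each stretch covers 250 bases ending at the base before the RefSeq start, 5′ to 3′ on the gene's strand. Capitals mark GAGGAA or its reverse complement TTCCTC, the core of the purine box bound by the macrophage factor PU.1, in Marco, Cd163 and Fcgr4. In H2-Aa and H2-Eb1 they mark CTGATTGG, the Y box letters of MHC class II promoters, also searched on both strands. The windows lie at chr1:120505025-120505274 on the minus strand, chr6:124304401-124304650 on the plus strand, chr1:171018676-171018925 on the plus strand, chr17:34287824-34288073 on the minus strand and chr17:34305617-34305866 on the plus strand. In GENCODE M21 (GRCm38) the genes span bases 120474538 to 120505024 of chromosome 1 (Marco), 124304656 to 124330527 of chromosome 6 (Cd163), 171018920 to 171029761 of chromosome 1 (Fcgr4), 34282744 to 34287823 of chromosome 17 (H2-Aa) and 34305867 to 34316674 of chromosome 17 (H2-Eb1). The Fcgr4 window thus overlaps the first bases of that gene model, and the other windows lie upstream of theirs.
Marco: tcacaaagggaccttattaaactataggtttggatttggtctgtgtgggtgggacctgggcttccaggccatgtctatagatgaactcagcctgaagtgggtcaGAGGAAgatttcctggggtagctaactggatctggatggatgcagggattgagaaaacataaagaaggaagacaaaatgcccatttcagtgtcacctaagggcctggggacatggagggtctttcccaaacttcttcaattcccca
Cd163: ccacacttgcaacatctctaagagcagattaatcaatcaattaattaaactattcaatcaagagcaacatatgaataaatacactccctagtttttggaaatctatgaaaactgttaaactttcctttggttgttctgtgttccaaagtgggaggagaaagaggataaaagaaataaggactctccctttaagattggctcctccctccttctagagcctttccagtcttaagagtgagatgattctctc
Fcgr4: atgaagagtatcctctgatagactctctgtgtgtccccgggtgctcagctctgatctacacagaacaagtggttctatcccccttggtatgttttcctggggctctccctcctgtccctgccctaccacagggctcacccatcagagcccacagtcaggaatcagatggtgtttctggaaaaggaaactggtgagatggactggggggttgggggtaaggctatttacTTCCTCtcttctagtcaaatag
H2-Aa: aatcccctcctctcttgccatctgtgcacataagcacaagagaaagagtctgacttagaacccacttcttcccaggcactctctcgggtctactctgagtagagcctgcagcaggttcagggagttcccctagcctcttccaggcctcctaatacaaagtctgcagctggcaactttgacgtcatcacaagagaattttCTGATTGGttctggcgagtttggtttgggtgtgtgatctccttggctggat
H2-Eb1: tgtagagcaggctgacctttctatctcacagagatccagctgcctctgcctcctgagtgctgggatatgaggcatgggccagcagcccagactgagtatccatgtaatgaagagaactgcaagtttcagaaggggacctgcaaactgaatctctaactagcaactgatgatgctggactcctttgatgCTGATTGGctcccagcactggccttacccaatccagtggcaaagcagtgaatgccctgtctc

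The purine box letters lay 146 bases before the start in Marco and 22 bases before it in Fcgr4, and the Cd163 window held none. Over all members, 16 of 34 windows (47.1%), from 15 genes, held GAGGAA on either strand, against 7639 of all 32851 windows (23.3%). The Y box letters lay 51 bases before the start in H2-Aa and 62 bases before it in H2-Eb1. They were in 2 of 34 member windows (5.88%) and in 3.83% of all windows. Neither MHC class II window held GAGGAA, so the 2 motifs did not overlap there. These matches describe letters in a window and were not tested as binding sites.

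In females on the Control diet, most macrophage markers rose between 6 and 24 months. Of the 37 members, 31 were higher and 1, Cd163, was lower at 24 months, and the median difference was 1.27 against a median near 0 over all genes. By the same rule 28.0% of all genes changed with age on this diet: 16.7% of all genes rose and 11.4% of all genes fell. The ranges of the age groups overlapped for every member, as they did for most genes, with separate ranges for only 1.52% of all genes. The 24-month livers were spread widely, and several stayed within the range of the 6-month livers.

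Among resident markers, 3 of 7 rose, 1 fell and 3 did not pass the test. Marco, a scavenger receptor for bacteria and particles, ran from 1.54 to 14.3 CPM (median 4.17) at 6 months and from 2.69 to 257 CPM (median 48.5) at 24 months on the Control diet. At 24 months 5 of 8 livers were above the highest 6-month liver and the other 3 lay inside the younger range. The difference was 3.75 ± 1.08 (adjusted p = 0.00853, edgeR). Timd4, which binds dying cells and marks long-settled Kupffer cells, ran from 6.13 to 12.7 CPM (median 9.12) at 6 months and from 4.95 to 65.6 CPM (median 16) at 24 months. Cd5l, a secreted protein also called AIM, ran from 84.1 to 204 CPM (median 134) at 6 months and from 74.8 to 1053 CPM (median 255) at 24 months. Both rose, by 1.42 ± 0.46 and 1.40 ± 0.41 (adjusted p = 0.017 and 0.00877, edgeR). Of the 8 older livers 4 exceeded the highest 6-month value for Timd4 and 5 for Cd5l, and 1 lay below the lowest for each. Neither passed without 24-month Control replicate 7, at 1.04 for Timd4 and 0.97 for Cd5l (adjusted p = 0.0822 and 0.0588, edgeR), or with voom and quality weights, at 0.84 and 1.02 (adjusted p = 0.111 and 0.0617).

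Clec4f, the marker most restricted to Kupffer cells in mice, did not pass the test. It ran from 63.5 to 193 CPM (median 123) at 6 months and from 70.4 to 498 CPM (median 159) at 24 months, with a difference of 0.65 ± 0.28 (adjusted p = 0.082, edgeR) and 2 of 8 older livers above the younger range. Vsig4 differed by 0.78 ± 0.34 (adjusted p = 0.0786, edgeR), from 16.4 to 66.2 CPM (median 41.1) at 6 months and from 21 to 183 CPM (median 44.6) at 24 months. Folr2 differed by 0.87 ± 0.35 (adjusted p = 0.0554, edgeR), from 1.77 to 8.42 CPM (median 4.56) at 6 months and from 1.76 to 22.7 CPM (median 7.5) at 24 months. In all 3 of these genes the older group reached higher than the younger one. Of the older livers 3 of 8 exceeded the younger range for Vsig4 and for Folr2, and 1 lay below it for Folr2.

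Cd163 moved the other way. This receptor clears haemoglobin bound to haptoglobin, and it ran from 25.2 to 83.2 CPM (median 57.3) at 6 months and from 5.28 to 59.9 CPM (median 22.1) at 24 months. At 24 months 4 of 8 livers lay below the lowest 6-month liver and none lay above the highest. The difference was -0.92 ± 0.34 (adjusted p = 0.0377, edgeR). It missed the threshold when only the Control groups were fitted (-0.93, adjusted p = 0.105, edgeR). The call was also lost in 9 of 46 fits with a single library left out, at -0.91 to -0.76 (adjusted p up to 0.0792, edgeR). Those libraries were 24-month Control replicates 2, 3, 5, 6 and 8 and 6-month Control replicates 2, 3, 5 and 7.

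All 4 recruited monocyte markers with counts rose. Ccr2, which draws monocytes toward CCL2, ran from 2.3 to 5.1 CPM (median 2.98) at 6 months and from 3.61 to 22.4 CPM (median 9.41) at 24 months, a difference of 1.87 ± 0.43 (adjusted p = 0.0014, edgeR), and 6 of 8 older livers exceeded every younger one. Itgam, which pairs with integrin beta 2 to form a complement receptor and is also carried by neutrophils, ran from 2.17 to 4.04 CPM (median 2.7) at 6 months and from 1.69 to 52.9 CPM (median 8.93) at 24 months, a difference of 2.46 ± 0.59 (adjusted p = 0.00205, edgeR). It exceeded the younger range in 7 of 8 livers. Itgax, shared with dendritic cells, ran from 0.629 to 2.08 CPM (median 1.02) at 6 months and from 1.04 to 7.86 CPM (median 4.29) at 24 months (1.87 ± 0.51, adjusted p = 0.00545, edgeR). Cx3cr1 ran from 0.229 to 2.45 CPM (median 0.953) at 6 months and from 1.35 to 4.73 CPM (median 1.91) at 24 months (1.21 ± 0.38, adjusted p = 0.0151, edgeR), with 3 of 8 older livers above the younger range. The fifth marker, lysozyme (Lyz2), had a log2 fold change of 1.34 in the authors' deposited table, with an adjusted p of 0.00143.

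The 3 MHC class II genes with counts rose together. Cd74 encodes the invariant chain that holds class II molecules until they are loaded with peptide, and H2-Aa and H2-Eb1 encode the alpha chain of I-A and the beta chain of I-E, the classical class II molecules. Cd74 ran from 53.8 to 115 CPM (median 83.7) at 6 months and from 25.9 to 787 CPM (median 175) at 24 months, H2-Aa from 17.3 to 43 CPM (median 31.6) at 6 months and from 7.71 to 269.8 CPM (median 66.2) at 24 months and H2-Eb1 from 6.98 to 28.8 CPM (median 15.9) at 6 months and from 6.32 to 207 CPM (median 42.2) at 24 months. The differences were 1.67 ± 0.47, 1.64 ± 0.47 and 1.92 ± 0.53 (adjusted p = 0.00709, 0.00839 and 0.00619, edgeR), and 7, 6 and 6 of 8 older livers lay above the younger range. In the authors' deposited table H2-Ab1, the partner chain of H2-Aa, had a log2 fold change of 1.43 with an adjusted p of 0.0129. B cells and dendritic cells also make these proteins.

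Of the lipid-associated markers, Gpnmb and Lgals3 rose and Trem2 did not pass the test. Lgals3, the lectin galectin-3, ran from 1.84 to 5.87 CPM (median 3.24) at 6 months and from 3.9 to 32.2 CPM (median 9.18) at 24 months (1.81 ± 0.38, adjusted p = 0.000692, edgeR). Gpnmb, a lysosomal glycoprotein, ran from 0.0572 to 0.896 CPM (median 0.417) at 6 months and from 0.569 to 4.12 CPM (median 1.13) at 24 months (1.58 ± 0.49, adjusted p = 0.0143, edgeR), at levels of few counts. Trem2, a lipid-sensing receptor that signals through Tyrobp, ran from 0.40 to 1.31 CPM (median 0.677) at 6 months and from 0.348 to 3.5 CPM (median 0.878) at 24 months (0.57 ± 0.38, adjusted p = 0.27, edgeR). Only 1 of 8 older livers exceeded the younger Trem2 range.

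All 3 genes of the complement starter C1q rose with all libraries in the fit: C1qa by 1.29 ± 0.37, C1qb by 1.13 ± 0.37 and C1qc by 1.17 ± 0.40 (adjusted p = 0.00842, 0.0201 and 0.0265, edgeR). C1qa ran from 22.4 to 58.5 CPM (median 31.6) at 6 months and from 28.4 to 176 CPM (median 63.9) at 24 months, C1qb from 20.6 to 48.4 CPM (median 27.9) at 6 months and from 27.3 to 159.6 CPM (median 43.8) at 24 months and C1qc from 12.9 to 37.5 CPM (median 21.5) at 6 months and from 13.3 to 131 CPM (median 38.7) at 24 months. Between 3 and 4 of the 8 older livers lay above the younger range for each chain, and the others overlapped with it. The C1qa call held in every alternative and single-library fit. C1qb and C1qc did not pass without the 5 livers high in neutrophil markers named below, at 0.89 and 0.92 (adjusted p = 0.0546 and 0.0735, edgeR), or without 24-month Control replicate 7, at 0.83 and 0.85 (adjusted p = 0.0913 and 0.11, edgeR). C1qc was also lost without Control replicate 1 or 4 of 24 months or replicate 1 of 6 months.

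All 5 Fc receptors and adaptors rose. Fcgr4, an activating receptor for IgG, ran from 2.66 to 7.98 CPM (median 5.2) at 6 months and from 4.4 to 77 CPM (median 10.3) at 24 months (1.95 ± 0.45, adjusted p = 0.00147, edgeR). Its adaptor Fcer1g ran from 2.97 to 7.27 CPM (median 5.57) at 6 months and from 4.45 to 22.8 CPM (median 7.65) at 24 months (1.19 ± 0.32, adjusted p = 0.00545, edgeR). Tyrobp, the adaptor of Trem2 and related receptors, ran from 5.15 to 13.9 CPM (median 9.98) at 6 months and from 6.87 to 55.6 CPM (median 16.2) at 24 months (1.27 ± 0.34, adjusted p = 0.00551, edgeR). In each of these 3 genes 5 of 8 older livers exceeded the younger range. The high-affinity receptor Fcgr1 and the low-affinity receptor Fcgr3 rose by 1.12 and 0.96. Their calls were lost without 24-month Control replicate 7 (0.85 and 0.71, adjusted p = 0.0864 and 0.113, edgeR), and that of Fcgr3 also without 24-month Control replicate 1 or 4 or 6-month Control replicate 1, 6 or 8.

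Of the 12 shared macrophage markers 11 rose, by 0.96 (Csf1r) to 2.09 (Ms4a7). Spi1, which encodes PU.1, ran from 2.45 to 5.19 CPM (median 3.13) at 6 months and from 3.45 to 23.2 CPM (median 6.57) at 24 months (1.51 ± 0.37, adjusted p = 0.00283, edgeR). The scavenger receptor Msr1 ran from 19.7 to 31.4 CPM (median 25) at 6 months and from 22.4 to 104 CPM (median 38) at 24 months (1.03 ± 0.24, adjusted p = 0.00169, edgeR). The lysosomal membrane protein Laptm5 ran from 10.5 to 22.8 CPM (median 15.5) at 6 months and from 19 to 103 CPM (median 30.2) at 24 months, and 7 of 8 older livers exceeded the younger range (1.42 ± 0.35, adjusted p = 0.00293, edgeR). Cybb, the catalytic subunit of the phagocyte NADPH oxidase, ran from 15.4 to 41.7 CPM (median 29.2) at 6 months and from 21.3 to 187 CPM (median 45.5) at 24 months (1.58 ± 0.45, adjusted p = 0.00748, edgeR). Mpeg1, a pore-forming protein of phagocytes, ran from 62 to 159 CPM (median 122) at 6 months and from 92.5 to 639 CPM (median 208) at 24 months (1.21 ± 0.34, adjusted p = 0.00764, edgeR). The exception was Mrc1, the mannose receptor, which liver endothelium also expresses. It ran from 62.3 to 219 CPM (median 126) at 6 months and from 74.5 to 207 CPM (median 106) at 24 months, a difference of 0.03 ± 0.19 (adjusted p = 0.939, edgeR). Of these genes Csf1r, Ms4a7 and Mrc1, like Fcgr3 and Adgre1, lay outside the rule for named members and were picked after their values were seen.

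**Figure D1:**
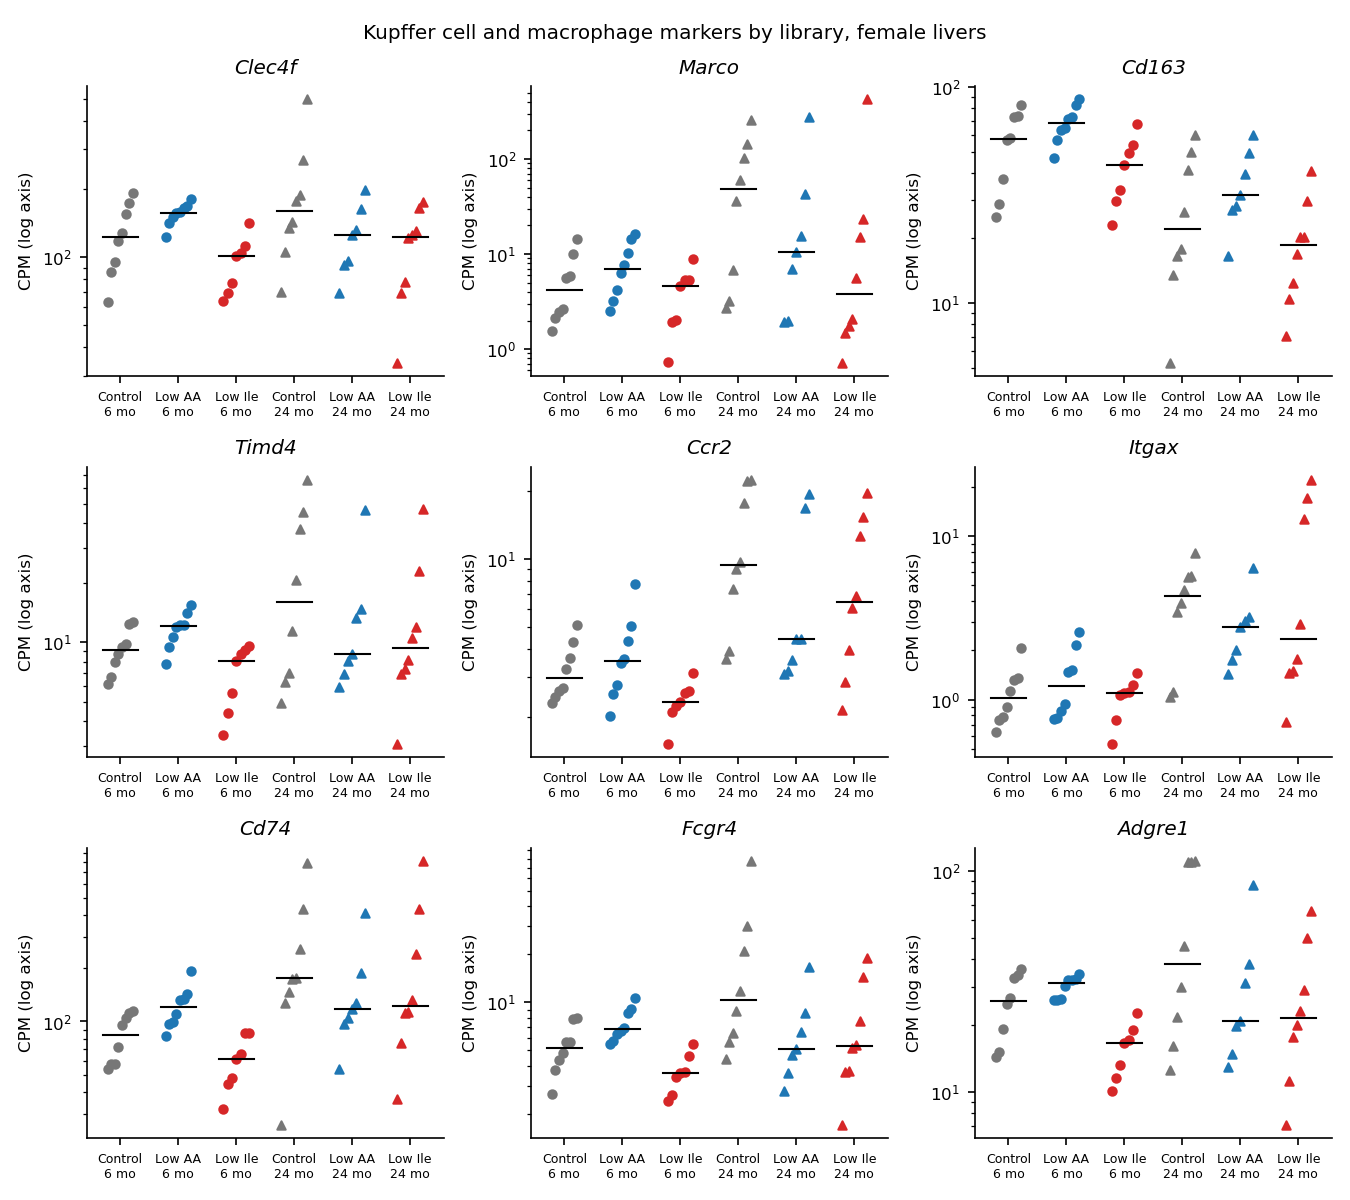
Level of 9 members in each female library, in TMM-scaled CPM on a log axis, by age and diet (points are libraries and bars are medians). Marco in the 24-month Control group runs from 2.69 to 257 CPM (median 48.5), and Cd163 reaches below every 6-month Control liver in 4 of 8 livers at 24 months.

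**Figure D2:**
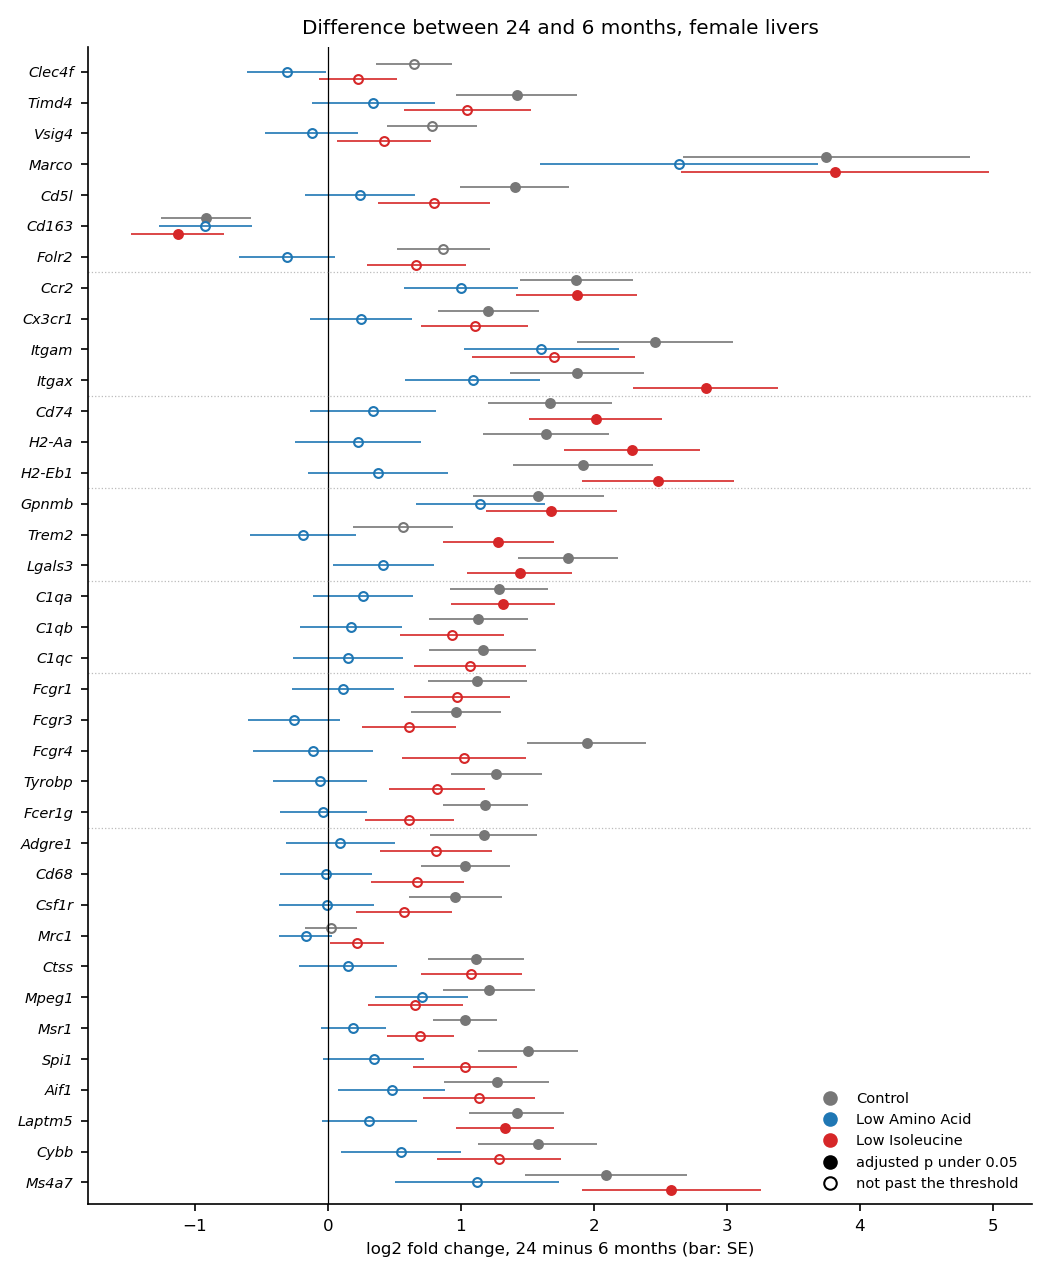
Difference between 24 and 6 months on each diet for the 37 members with counts, as log2 fold change ± SE from edgeR (filled points passed an adjusted p of 0.05). The Control diet has 32 filled points, Low Isoleucine has 13 and Low Amino Acid has none (edgeR, with 7 at an unadjusted p under 0.05), and Cd163 lies below 0 on all 3.

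The rise on the Control diet was carried unevenly by the livers, and other immune cell markers moved with it. All 13 neutrophil markers rose between 6 and 24 months on the Control diet. Their summed level was 4.06 to 10.6 CPM (median 8.16) at 6 months and 9.6 to 844 CPM (median 63.1) at 24 months, and between 3 and 6 of the 13 genes were at 0 in some library of each group. All 6 tested B and plasma cell markers rose, with sums of 2.42 to 9.91 CPM (median 4.02) and then 6.67 to 223 CPM (median 15.2), as did 7 of 11 tested T and NK cell markers, with sums of 3.89 to 6.54 CPM (median 5.48) and then 2.19 to 48.6 CPM (median 14.1). Of 8 tested dendritic cell markers 3 rose and 1 fell. All 10 tested acute phase genes, which hepatocytes make in inflammation, rose as well. Markers of red cells and of other liver cells gave the following values. Both tested erythroid genes fell (Hbb-bs by 1.35 and Alas2 by 0.63 on the log2 scale), as did 1 of 4 tested hepatocyte markers, Cyp2e1, at -1.08 ± 0.17. Of 10 stellate and fibroblast markers 2 rose, Col3a1 and, by 1.36 ± 0.48, Col1a1, and Reln fell, at -0.47 ± 0.15. Of 5 cholangiocyte markers Sox9 rose by 1.78 ± 0.49. None of 11 tested endothelial markers passed edgeR's test, with 4 at an unadjusted p under 0.05, and their sums were 392 to 659.9 CPM (median 489) and then 367 to 630.0 CPM (median 534). The member levels were highest at 24 months in Control replicates 1, 4 and 7, Low Amino Acid replicate 2 and Low Isoleucine replicates 2 and 5. Neutrophil markers were high in Control replicates 1 and 4, Low Amino Acid replicates 2 and 4 and Low Isoleucine replicate 5, and B cell markers in Control replicate 7 and Low Isoleucine replicate 2. Without the 5 neutrophil-high livers, 21 members still rose on the Control diet and Cd163 fell, beside 22.8% of all genes changed. Besides C1qb and C1qc, the members no longer called were Cx3cr1, Fcgr1, Fcgr3, Adgre1, Cd68, Csf1r, Ctss and Ms4a7. Marco then differed by 2.90 ± 0.74, Ccr2 by 1.39 ± 0.36, Itgam by 1.28 ± 0.35 and Cd163 by -1.22 ± 0.37. The part of the other cell types in the remaining differences was not tested. Leaving out Control replicate 7 of the 24-month group alone brought the number of members called from 32 to 22, the lowest of any single library. Those lost were Timd4, Cd5l, C1qb, C1qc, Fcgr1, Fcgr3, Adgre1, Cd68, Csf1r and Ctss. Cx3cr1 was lost without 24-month Control replicate 1 and Gpnmb without replicate 5. Voom with quality weights did not call Timd4, Cd5l, Cd74, H2-Aa, Gpnmb, Adgre1, Csf1r or Mpeg1.

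On the Low Amino Acid diet no member passed edgeR's test between ages, where 1.61% of all genes did. The median difference over the 37 members was 0.23, with 25 of 37 positive and 7 at an unadjusted p under 0.05. The sign of this median depended on the fit. With voom and quality weights it was -0.26, with 10 positive and 27 negative. Without the 5 livers high in neutrophil markers it was -0.35, with 5 positive and 32 negative. DESeq2 called none of them and had 7 at an unadjusted p under 0.05. Voom with quality weights called 1, Cd163, and had 5, where it called 3.68% of all genes. Marco ran from 2.53 to 16.4 CPM (median 7.0) at 6 months and from 1.91 to 275 CPM (median 10.4) at 24 months, a difference of 2.64 ± 1.05 (adjusted p = 0.221, edgeR). Its 2 highest livers, replicates 2 and 4, were the only 2 of 7 above the younger range. Cd163 ran from 47.1 to 88 CPM (median 68.2) at 6 months and from 16.5 to 60.3 CPM (median 31.5) at 24 months, with 5 of 7 older livers below the younger range and a difference of -0.92 ± 0.35 (adjusted p = 0.201, edgeR). Itgam differed by 1.60 ± 0.58, and 4 of 7 older livers were above its younger range. The MHC class II genes differed by 0.23 to 0.38 and the C1q chains by 0.15 to 0.26. On this diet 7 of 13 neutrophil markers and 6 of 10 acute phase genes rose with age.

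On the Low Isoleucine diet 12 of 37 members rose with age and 1, Cd163, fell, while 7.36% of all genes changed. Of all genes 4.90% rose and 2.46% fell. The median difference over the members was 1.05. The MHC class II genes rose by 2.01 ± 0.50 (Cd74), 2.29 ± 0.51 (H2-Aa) and 2.49 ± 0.57 (H2-Eb1), with adjusted p of 0.0114, 0.00523 and 0.00664 (edgeR). The Cd74 call was lost without 24-month Low Isoleucine replicate 2 (1.43, adjusted p = 0.0647, edgeR). Those of H2-Aa and H2-Eb1 held with any single library left out. H2-Aa ran from 10.1 to 28.6 CPM (median 18.3) at 6 months and from 13.5 to 321 CPM (median 48.2) at 24 months, and 6 of 8 older livers were above the younger range. All 3 lipid-associated markers passed with all libraries in the fit: Gpnmb rose by 1.68 ± 0.49, Lgals3 by 1.44 ± 0.40 and Trem2 by 1.28 ± 0.42 (adjusted p = 0.0303, 0.0208 and 0.0486, edgeR). Trem2 ran from 0.151 to 0.802 CPM (median 0.401) at 6 months and from 0.121 to 1.71 CPM (median 1.12) at 24 months, with 5 of 8 older livers above the younger range. The Trem2 call was lost in 32 of 46 fits with a single library left out (adjusted p up to 0.117, edgeR) and in 6 of 9 alternatives, where it differed by 0.91 to 1.29. Gpnmb was lost in 6 of the 46 fits and 5 alternatives, and Lgals3 in 2 fits, those without 24-month Low Isoleucine replicate 2 or 5, and 4 alternatives. Of the recruited markers Itgax rose by 2.84 ± 0.55 and Ccr2 by 1.87 ± 0.45 (adjusted p = 0.00159 and 0.0102, edgeR). Itgax was 22.0 CPM in replicate 2, 17.2 in replicate 5 and 12.7 in replicate 7, above the highest 24-month Control liver at 7.86. Cx3cr1 and Itgam, at 1.11 ± 0.40 and 1.70 ± 0.61, did not pass. C1qa, Laptm5 and Ms4a7 also rose, and none of the 5 Fc receptors and adaptors passed edgeR's test.

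The resident markers on Low Isoleucine split as on the Control diet, with Marco and Cd163 past the threshold in opposite directions. Cd163 ran from 23 to 67.9 CPM (median 43.6) at 6 months and from 7.01 to 41 CPM (median 18.5) at 24 months, with 6 of 8 older livers below the younger range (-1.13 ± 0.35, adjusted p = 0.0401, edgeR). The Cd163 call was lost in 11 of 46 fits with a single library left out, 6 of them 24-month and 5 of them 6-month Low Isoleucine livers, at -1.18 to -0.98 (adjusted p up to 0.0921, edgeR). It was also lost in 4 of 9 alternatives, at -1.27 to -1.12. Marco ran from 0.728 to 8.91 CPM (median 4.58) at 6 months and from 0.713 to 425 CPM (median 3.82) at 24 months. Its median was lower at 24 months, and its fold change of 3.81 ± 1.16 (adjusted p = 0.0359, edgeR) came from replicate 5 at 425 CPM, the library with the fewest counts. Without that library the difference was 0.79 (adjusted p = 0.686), and voom with quality weights, which gives spread-out libraries less weight, put it at -0.23 (adjusted p = 0.915). Clec4f, Vsig4, Cd5l, Timd4 and Folr2 differed by 0.23, 0.42, 0.80, 1.05 and 0.67 and did not pass.

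The number of members called between ages on Low Isoleucine depended on single livers. It was 5 without 24-month Low Isoleucine replicate 2 and 5 without replicate 5, and Marco, C1qa, Laptm5, Ms4a7, Gpnmb, Lgals3 and Trem2 were lost in both of these fits. It was 8 without 6-month Low Isoleucine replicate 1, 6 or 8, and 22 without 24-month replicate 3, the liver lowest in members. Voom with quality weights called 2, H2-Aa and Cd163, and DESeq2 called 20, where they called 8.54% and 10.9% of all genes. With 24-month Low Amino Acid replicates 2 and 4 and Low Isoleucine replicates 2 and 5 left out together, none of the 37 passed edgeR's test, with 10 at an unadjusted p under 0.05, and 0.941% of all genes passed. All 6 tested B and plasma cell markers, 6 of 11 T and NK cell markers, 4 of 8 dendritic cell markers and 2 of 13 neutrophil markers rose with age on this diet. The sums of the B and plasma cell markers were 0.951 to 6.04 CPM (median 2.9) at 6 months and 7.17 to 147 CPM (median 20.8) at 24 months. Their part in the MHC class II and Itgax values was not tested.

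At 6 months no member passed the test against Control on either diet. On Low Amino Acid 36 of 37 differences were positive, with a median of 0.32, and edgeR, DESeq2 and voom with quality weights each called 0 members. The unadjusted p was under 0.05 for 0 members by edgeR, 0 by DESeq2 and 5 by voom, and 0% of all genes passed edgeR's test. With only the 6-month libraries fitted, 8 of 36 tested members had an unadjusted p under 0.05 by edgeR. With only the groups compared, 12 of 36 did, and neither fit called a member. On Low Isoleucine 36 of 37 differences were negative, with a median of -0.46, and 0.0238% of all genes passed. EdgeR, DESeq2 and voom called 0 members, with 2, 3 and 0 at an unadjusted p under 0.05. In edgeR fits of only the 6-month libraries or only the groups compared, these were 18 and 17 of 36 tested members, with none called. Gpnmb was the member above 0, at 0.85 ± 0.52. Clec4f ran from 63.5 to 193 CPM (median 123) on Control, from 123 to 181 CPM (median 157) on Low Amino Acid and from 63.9 to 142 CPM (median 102) on Low Isoleucine. Its 3 ranges overlapped, and the Low Amino Acid livers lay in the upper part of the Control range.

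Set directly against each other at 6 months, the restricted diets lay further apart. The median difference of Low Isoleucine minus Low Amino Acid was -0.75, and 36 of 37 members were negative. EdgeR called none of them, with 17 at an unadjusted p under 0.05, where 0.0159% of all genes passed. DESeq2 and voom with quality weights also called 0, with 20 and 27 at an unadjusted p under 0.05. The groups did not overlap for 5 of 37 members, and for 0.579% of all genes. Those 5 were Vsig4, Fcgr3, Fcgr4, Adgre1 and Csf1r. Vsig4 ran from 42.5 to 57.8 CPM (median 49.2) on Low Amino Acid and from 14.2 to 37 CPM (median 25.7) on Low Isoleucine (-0.90 ± 0.36, adjusted p = 0.411, edgeR). Fcgr4 ran from 5.51 to 10.6 CPM (median 6.75) on Low Amino Acid and from 2.41 to 5.49 CPM (median 3.61) on the Low Isoleucine diet (-1.01 ± 0.47, adjusted p = 0.47, edgeR). Adgre1 ran from 26 to 34.1 CPM (median 31.2) on Low Amino Acid and from 10.1 to 22.9 CPM (median 16.7) on the Low Isoleucine diet (-0.92 ± 0.42, adjusted p = 0.468, edgeR). In all 3 every Low Isoleucine liver was below every Low Amino Acid liver. MHC class II genes had the most negative differences, from -1.24 (H2-Eb1) and -1.18 (H2-Aa) to -1.04 (Cd74). When only the 6-month libraries were fitted, which removes the wide 24-month groups from the estimate of spread, 11 members were lower on Low Isoleucine, and 16 when only these 2 groups were fitted, beside 1.66% and 1.70% of all genes. Markers of other cells lay on the same side in this comparison. All 11 tested T and NK cell markers (median -0.80), all 6 B and plasma cell markers (median -0.79), all 10 stellate and fibroblast markers (median -0.38) and 11 of 13 neutrophil markers (median -0.51) were negative, and none of these lists had a call by edgeR, with 1, 0, 3 and 0 genes at an unadjusted p under 0.05. The endothelial median was -0.08. The dendritic cell marker Cd207 fell by 2.01 on the log2 scale, the only call among 8 tested dendritic cell markers. The part of these cells in the member differences was not tested.

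**Figure D3:**
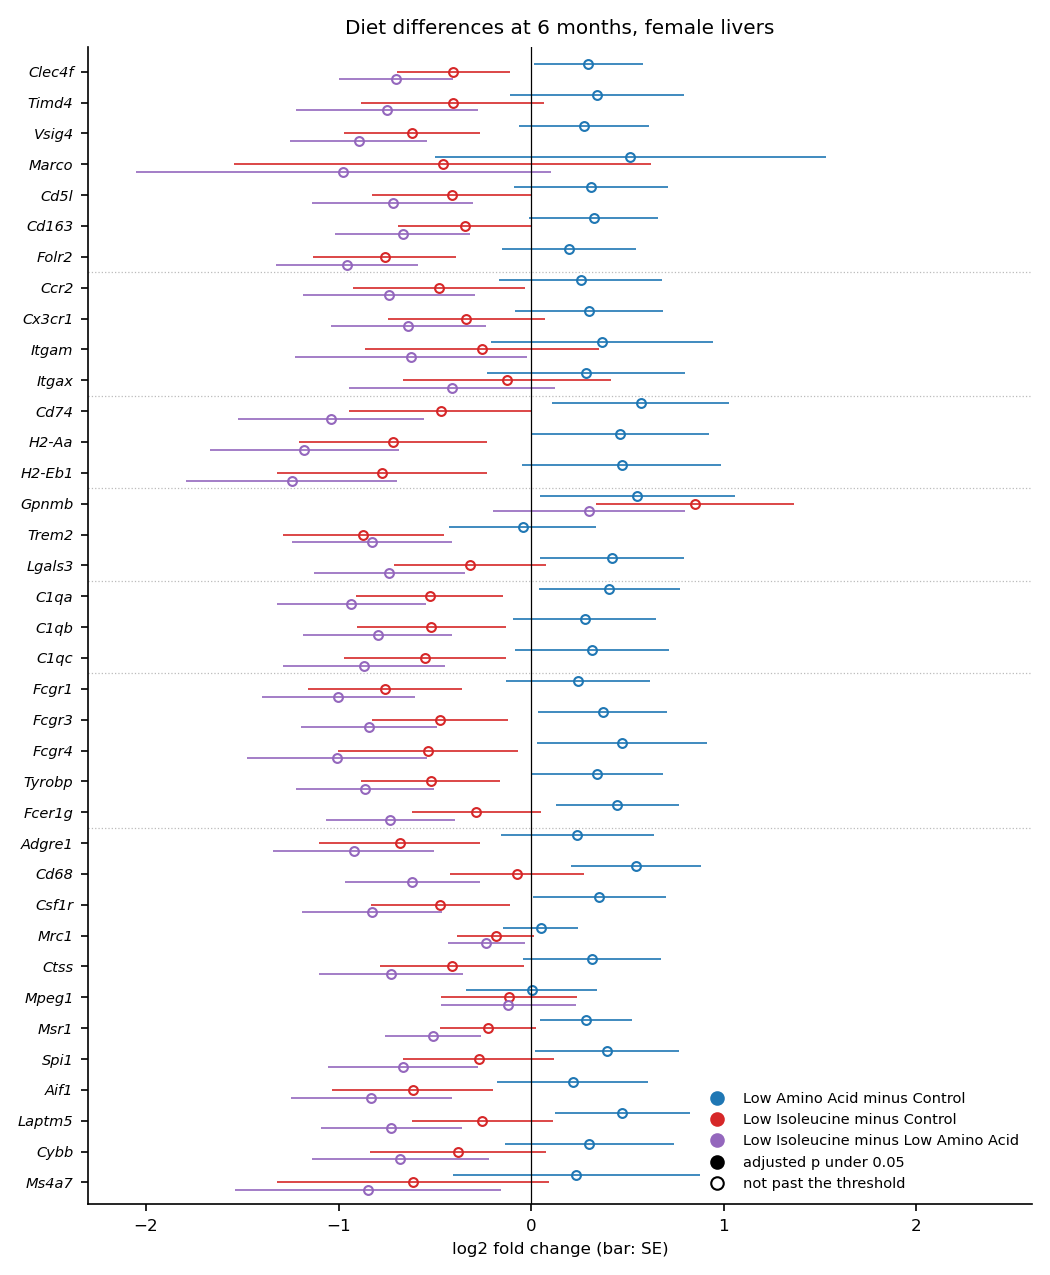
Diet differences at 6 months for the 37 members with counts, as log2 fold change ± SE from edgeR, for Low Amino Acid minus Control, Low Isoleucine minus Control and Low Isoleucine minus Low Amino Acid. No point passed an adjusted p of 0.05, and 36 of 37 members lie above 0 in the first comparison and below 0 in the others.

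At 24 months 1 of 37 members differed from Control on Low Isoleucine, and none on Low Amino Acid. The call was Fcgr4, which ran from 4.4 to 77 CPM (median 10.3) on Control, from 2.76 to 16.8 CPM (median 5.08) on Low Amino Acid and from 1.69 to 18.9 CPM (median 5.29) on Low Isoleucine. The ranges of the 3 diets overlapped, and the Control livers reached highest. Fcgr4 was lower by -1.46 ± 0.44 on Low Isoleucine minus Control (adjusted p = 0.0362, edgeR) and differed by -1.58 ± 0.46 on Low Amino Acid (adjusted p = 0.0739, edgeR). The Low Isoleucine call was lost in 9 of 46 fits with a single library left out. Without 24-month Control replicate 7 the difference was -0.75 (adjusted p = 0.262, edgeR). The call was also lost with only the 24-month libraries, with only the groups compared, and without the 5 livers high in neutrophil markers. In the last of these fits 1 other member was called. For Low Isoleucine 6.48% of all genes passed, 2.69% upward and 3.79% downward. A count of 1 among 37 members is too small to set apart from these shares. The median over members was -0.67, with 34 of 37 negative and 14 at an unadjusted p under 0.05 by edgeR. That number was 6 with only the 24-month libraries fitted and 6 with only the groups compared, and neither fit called a member. Of all genes those fits called 188 of 12419 and 40 of 12103, against 818 of 12617 with all libraries. For Low Amino Acid 0.745% of all genes passed. The median over members was -0.68, with 35 of 37 negative and 12 at an unadjusted p under 0.05 by edgeR. That number was 3 with only the 24-month libraries fitted and 5 with only the groups compared, again with no member called. DESeq2 called 1, Fcgr4, and 2.35% of all genes, with 15 members at an unadjusted p under 0.05, and voom with quality weights called 0, with 24.

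The other lists at 24 months showed the same spread. Clec4f ran from 70.4 to 498 CPM (median 159) on Control, from 69.6 to 198 CPM (median 125) on Low Amino Acid and from 34.1 to 175 CPM (median 123) on Low Isoleucine, with differences from Control of -0.66 ± 0.30 and -0.82 ± 0.29. Vsig4 differed by -0.63 ± 0.35 and -0.98 ± 0.34, and Cd5l by -0.85 ± 0.42 and -1.02 ± 0.40. Cd163 differed by 0.32 ± 0.35 on Low Amino Acid and by -0.55 ± 0.34 on Low Isoleucine. MHC class II differences were -1.07 to -0.76 on Low Amino Acid and -0.21 to -0.07 on the Low Isoleucine diet. All 6 tested B and plasma cell markers, whose cells also carry MHC class II, were negative on Low Amino Acid (median -1.64), all 6 at an unadjusted p under 0.05 and none past edgeR's adjusted threshold, while on Low Isoleucine their median was -0.13 with 4 of 6 negative. Their sums at 24 months were 6.67 to 223 CPM (median 15.2) on Control, 5.51 to 25.6 CPM (median 14.8) on Low Amino Acid and 7.17 to 147 CPM (median 20.8) on Low Isoleucine, and their part in the MHC class II values was not tested. Itgax differed by 0.84 ± 0.47 on Low Isoleucine and Itgam by -1.01 ± 0.56, neither past the threshold. Between the restricted diets edgeR called 0 of 37, with a median of 0.05 and 2 at an unadjusted p under 0.05, where 1.25% of all genes passed. DESeq2 and voom called 0 as well, with 2 and 1 at an unadjusted p under 0.05. Itgax had the largest of these differences, 1.34 ± 0.50 (adjusted p = 0.17, edgeR). In the Low Isoleucine minus Control comparison 8 of 10 acute phase genes and 3 of 13 neutrophil markers fell. Neutrophil sums at 24 months were 6.92 to 535 CPM (median 10.8) on Low Amino Acid and 3.95 to 203 CPM (median 14.1) on the Low Isoleucine diet.

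The 24-month diet counts rested on few livers. On Low Isoleucine minus Control the number of members called was 0 without Control replicate 1, 4 or 7 or without Low Isoleucine replicate 1, 3, 4, 6, 7 or 8. It was 2 without Control replicate 6, 4 without Control replicate 2, 7 without Control replicate 5, 5 without Low Isoleucine replicate 5 and 8 without Low Isoleucine replicate 2. On Low Amino Acid minus Control it was 1 without Control replicate 6 and 2 without Low Amino Acid replicate 2. With Low Amino Acid replicates 2 and 4 and Low Isoleucine replicates 2 and 5 left out, the fold changes of the counts correlated with the deposited ones across 11952 genes at r = 0.943 and 0.949, against 0.848 and 0.848 with all libraries, for Low Amino Acid and Low Isoleucine minus Control. Genes are not independent replicates, and the sources used here do not say which libraries entered the deposited fits. In that fit 27 of 37 members were lower on Low Amino Acid and 30 on the Low Isoleucine diet, where 11.7% and 14.0% of all genes passed. The livers left out include those highest in members on the restricted diets, whereas the highest Control livers, replicates 1, 4 and 7, stayed in, so these counts are no independent test of the diets.

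The levels of the remaining named members on the restricted diets are given next, with Low Amino Acid before Low Isoleucine at each age. Among resident markers, Timd4 gave 7.8 to 15.5 CPM (median 12.1) and 3.41 to 9.55 CPM (median 8.06) at 6 months, and 5.94 to 46.4 CPM (median 8.7) and 3.07 to 46.9 CPM (median 9.33) at 24 months. Cd5l gave 122 to 249 CPM (median 175) and 45.4 to 145 CPM (median 120.4) at 6 months, and 89.1 to 514 CPM (median 174) and 40.4 to 376 CPM (median 151) at 24 months. Folr2 gave 3.98 to 7.11 CPM (median 5.61) and 1.46 to 4.32 CPM (median 2.99) at 6 months, and 2.37 to 7.68 CPM (median 4.16) and 1.17 to 7.78 CPM (median 4.09) at 24 months. For Timd4 and Cd5l the highest livers on both diets were those of 24 months, as on Control. At 24 months Vsig4 gave 30.5 to 87.9 CPM (median 33.4) and 12.3 to 76 CPM (median 34.7). Among recruited markers, Ccr2 gave 2.01 to 7.72 CPM (median 3.54) and 1.51 to 3.13 CPM (median 2.33) at 6 months, and 3.11 to 19.5 CPM (median 4.42) and 2.14 to 19.7 CPM (median 6.45) at 24 months. Itgam gave 2.29 to 4.88 CPM (median 4.25) and 1.73 to 4.58 CPM (median 1.97) at 6 months, and 3.21 to 38.6 CPM (median 5.41) and 1.09 to 37.5 CPM (median 3.56) at 24 months. These 2 genes had their highest livers at 24 months on both diets, while their lowest livers lay near the 6-month ones. Itgax gave 0.765 to 2.59 CPM (median 1.21) and 0.534 to 1.46 CPM (median 1.1) at 6 months, and 1.43 to 6.41 CPM (median 2.76) and 0.726 to 22 CPM (median 2.34) at 24 months. Cx3cr1 gave 0.367 to 2.6 CPM (median 1.32) and 0.312 to 1.32 CPM (median 0.742) at 6 months, and 1.0 to 2.41 CPM (median 1.55) and 0.605 to 3.93 CPM (median 1.17) at 24 months. The highest Itgax liver of any group was on Low Isoleucine at 24 months.

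The MHC class II genes spread likewise. Cd74 gave 83 to 194 CPM (median 121) and 31.8 to 85.6 CPM (median 61.1) at 6 months, and 53.9 to 409.5 CPM (median 118) and 36.3 to 808 CPM (median 122) at 24 months. H2-Eb1 gave 11.4 to 37.8 CPM (median 24.3) and 4.23 to 16.2 CPM (median 10.1) at 6 months, and 10.1 to 80.9 CPM (median 21.7) and 8.11 to 206 CPM (median 25.9) at 24 months. H2-Aa on Low Amino Acid gave 26.1 to 72.4 CPM (median 41) at 6 months and 17.3 to 114 CPM (median 38) at 24 months. All 3 genes had wider ranges at 24 than at 6 months on both diets. Gpnmb gave 0.287 to 1.94 CPM (median 0.572) and 0.373 to 1.51 CPM (median 0.889) at 6 months, and 0.593 to 2.54 CPM (median 1.47) and 0.516 to 6.71 CPM (median 1.97) at 24 months. Lgals3 gave 3.57 to 6.57 CPM (median 4.38) and 1.74 to 3.86 CPM (median 2.56) at 6 months, and 3.35 to 14 CPM (median 4.28) and 1.33 to 14.6 CPM (median 5.81) at 24 months. Trem2 on Low Amino Acid gave 0.367 to 0.996 CPM (median 0.713) at 6 months and 0.444 to 0.847 CPM (median 0.576) at 24 months. Of these lipid-associated markers Gpnmb and Trem2 stayed at few counts in every group. C1qa gave 35.8 to 58.1 CPM (median 47.3) and 14.9 to 37.2 CPM (median 27) at 6 months, and 29.4 to 142 CPM (median 39.3) and 13.2 to 151 CPM (median 48.1) at 24 months. C1qb gave 26.1 to 46.4 CPM (median 37) and 11.2 to 35.5 CPM (median 18.9) at 6 months, and 24.8 to 107 CPM (median 27.7) and 8.51 to 104 CPM (median 31.7) at 24 months. C1qc gave 19.7 to 39 CPM (median 30.9) and 9.01 to 26.3 CPM (median 17.2) at 6 months, and 16.8 to 89.3 CPM (median 22.9) and 6.33 to 83 CPM (median 28.5) at 24 months. The ranges of all 3 chains overlapped between ages on each restricted diet.

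The adaptors and shared markers followed. Fcer1g gave 4.98 to 8.71 CPM (median 7.6) and 1.79 to 5.87 CPM (median 4.95) at 6 months, and 3.94 to 16.7 CPM (median 4.88) and 3.11 to 12.3 CPM (median 5.92) at 24 months. Tyrobp gave 8.97 to 14.5 CPM (median 12.5) and 4.25 to 10.3 CPM (median 5.56) at 6 months, and 5.77 to 28.2 CPM (median 9.41) and 3.31 to 27 CPM (median 10) at 24 months. Both carry activating signals for partner receptors, and their ranges on the restricted diets overlapped between ages. Spi1 gave 3.36 to 5.48 CPM (median 4.7) and 1.9 to 4.45 CPM (median 2.56) at 6 months, and 3.58 to 12.5 CPM (median 4.37) and 1.25 to 16.5 CPM (median 4.32) at 24 months. Msr1 gave 22.7 to 37.6 CPM (median 30.1) and 12.5 to 26.2 CPM (median 22.8) at 6 months, and 21.9 to 48.5 CPM (median 34.2) and 13.4 to 55.1 CPM (median 33.9) at 24 months. Laptm5 gave 18.3 to 32.6 CPM (median 22) and 8.34 to 20.4 CPM (median 14.1) at 6 months, and 16.9 to 64.1 CPM (median 20.6) and 8.23 to 89 CPM (median 24) at 24 months. For Laptm5 2 of 7 Low Amino Acid and 5 of 8 Low Isoleucine livers at 24 months exceeded the range of the same diet at 6 months. Cybb gave 28 to 42.2 CPM (median 34.7) and 12.5 to 30.1 CPM (median 23.1) at 6 months, and 21.5 to 139 CPM (median 34) and 9.76 to 142 CPM (median 35) at 24 months. Mpeg1 gave 87.3 to 152 CPM (median 115) and 60 to 153 CPM (median 90.4) at 6 months, and 82.2 to 403 CPM (median 154) and 65.4 to 383 CPM (median 137) at 24 months. Mpeg1 exceeded its own 6-month range in 4 of 7 and 3 of 8.

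Whether a diet's difference from Control changed with age was tested as an interaction. For Low Amino Acid all 37 members were negative, with a median of -1.01, and edgeR called 0, with 13 at an unadjusted p under 0.05 and 0% of all genes called. DESeq2 and voom called 0, with 16 and 30 at an unadjusted p under 0.05. Fcgr4 had the most negative value, -2.06 ± 0.63 (adjusted p = 0.482, edgeR). Without the 4 livers named above 21 members were called, all negative, beside 4.12% of all genes. For Low Isoleucine the median was -0.20, with 11 of 37 positive and 0% of all genes called. EdgeR, DESeq2 and voom called 0 members, with 0, 0 and 1 at an unadjusted p under 0.05. The difference between the Control rise with age and the smaller values on Low Amino Acid was thus not past edgeR's threshold for any member.

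Resident and recruited markers were set against each other within each liver. A score for each list was the mean log2 CPM of its members, set to 0 at the mean of the 6-month Control livers, and the recruited score was subtracted from the resident one. At 6 months the difference was 0.00 ± 0.54 on Control, 0.14 ± 0.36 on Low Amino Acid and -0.20 ± 0.70 on the Low Isoleucine diet (mean ± SD, n = 8, 8 and 7). At 24 months it was -0.81 ± 1.02 on Control, -0.75 ± 0.57 on Low Amino Acid and -1.21 ± 0.54 on the Low Isoleucine diet (n = 8, 7 and 8). It lay below 0 in 7 of 8, 6 of 7 and 8 of 8 of the 24-month livers, with ranges of -2.45 to 0.86, -1.42 to 0.03 and -2.11 to -0.43. At 6 months the ranges were -1.10 to 0.54, -0.34 to 0.71 and -1.11 to 0.95, so the ages overlapped on each diet. The recruited score at 24 months was 1.55 ± 0.91, 1.01 ± 0.78 and 1.05 ± 1.30 on the 3 diets and the resident score 0.74 ± 1.26, 0.26 ± 0.88 and -0.16 ± 1.01. Without Marco in the resident list the 24-month differences were -1.14, -0.97 and -1.34. With MHC class II genes, lipid-associated markers and Ms4a7 added to the recruited list instead, they were -0.60, -0.55 and -1.21. In that setting 6 of 8, 6 of 7 and 8 of 8 of the 24-month livers lay below 0. These scores are descriptions and were not tested, since the lists were chosen with earlier results known. Neutrophils carry Itgam and dendritic cells carry Itgax, and the part of those cells in the recruited score was not tested.

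**Figure D4:**
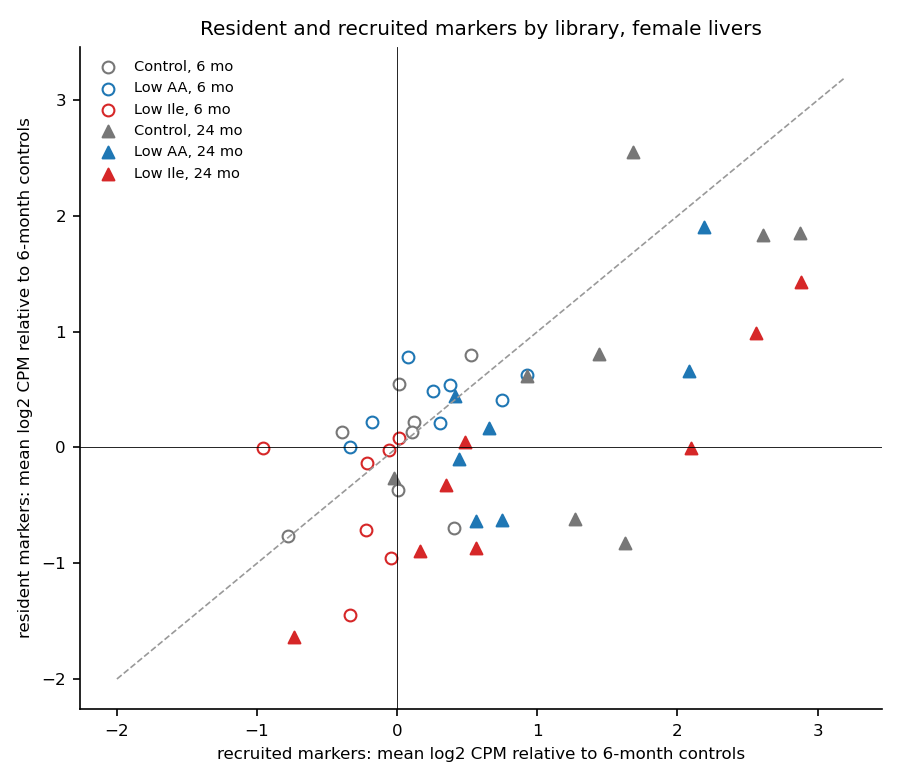
Resident score against recruited score in each female liver, as mean log2 CPM relative to the 6-month Control mean, with a dashed line where the scores are equal. Of the 24-month livers, 7 of 8 on Control, 6 of 7 on Low Amino Acid and 8 of 8 on Low Isoleucine have the recruited score above the resident one.

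Genes around the macrophages gave the following counts. The Kupffer identity factors are regulators of transcription linked to the resident programme. Of 12 tested, 4 rose with age on Control, among them Spic by 1.63 ± 0.47 and Id3 by 1.21 ± 0.25. On Low Amino Acid 1 rose and on Low Isoleucine 3 rose, among them Irf8 by 1.47 ± 0.36 and Id1 by 1.42 ± 0.40. Which cells of the whole liver carried these changes was not tested. Of 11 tested niche and chemoattractant ligands 5 rose and 1 fell with age on Control, where Ccl5 rose by 3.09 ± 0.63 and Ccl2, the ligand of Ccr2, by 2.22 ± 0.71. Ccl2 also rose on Low Amino Acid, by 3.15 ± 0.71, and on Low Isoleucine, by 2.79 ± 0.78, where 1 and 3 ligands rose. Of 13 tested genes for scavenging, iron handling and pattern recognition 7 rose and 1 fell on Control. Cd14, the co-receptor for bacterial lipopolysaccharide, rose by 3.34 ± 0.80, and the lectin Cd209f fell, at -2.43 ± 0.70. Cd14 was the single gene of this list to rise on Low Amino Acid, by 3.39 ± 0.81, and none of the list passed edgeR's test on Low Isoleucine. Of 4 tested macrophage cytokines Tnf and Il1b rose on Control, by 2.36 ± 0.58 and 1.48 ± 0.46, and Tnf rose on Low Isoleucine by 3.12 ± 0.64. At 24 months Low Isoleucine minus Control, the ligand Bmp10 rose by 0.44 ± 0.14 and the haem-degrading enzyme Hmox1 was lower, at -1.09 ± 0.34.

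The authors' deposited tables hold all 39 members in both sexes, with no standard error or number of libraries. In the authors' deposited table for females, 30 members were higher and 1 lower at 24 months on Control, where 23.5% of all genes passed, 12.4% upward and 11.1% downward. At 24 months the authors' deposited table had 7 members lower on Low Amino Acid and 25 lower on Low Isoleucine. By the same rule 5.53% and 9.24% of all genes passed, with 2.66% and 5.21% of all genes lower. Lyz2 was among the members lower on both diets in the authors' deposited table, at -1.31 and -1.25 (adjusted p = 0.024 and 0.0135). Marco stood at -2.50 and -3.52 in the authors' deposited table, against -0.59 and -0.39 in the fit of all libraries. A further comparison has the header Low Isoleucine Female Control vs Low Isoleucine, which names no ages. It was taken as age on Low Isoleucine, and that reading was not checked. In it the authors' deposited table for females called 0 members, with 6 at an unadjusted p under 0.05, beside 0.739% of all genes.

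In the authors' deposited table for males, 20.0% of all genes changed with age on Control and 8.33% of all genes rose. Among the members, 14 rose in the authors' deposited table. They included the resident markers Vsig4 (1.05) and Cd5l (1.15), the recruited markers Lyz2 (1.55) and Itgam (1.36), and Cybb (1.59). Mrc1 was among the 14 in the authors' deposited table for males, at 0.63, and Marco was not, at 2.13 (adjusted p = 0.287). Cd163 stood at -0.30 (adjusted p = 0.754) in the same authors' deposited table. No member was called in any male diet comparison of the authors' deposited table, while 16.3% and 21.1% of all genes were called at 6 months on Low Amino Acid and Low Isoleucine and 0.0563% and 0.0676% at 24 months. At an unadjusted p under 0.05 the authors' deposited table had 0 and 3 members at 6 months and 8 and 24 at 24 months. At 24 months all 39 members were positive on Low Amino Acid, with a median of 0.585, and 38 of 39 were negative on Low Isoleucine, with a median of -1.04, in the authors' deposited table for males. The male comparison taken as age on Low Isoleucine has a header that also names no ages, and that reading was not checked. In it the authors' deposited table for males called 0 members, with 0 at an unadjusted p under 0.05, beside 7.08% of all genes. The 2 sexes were fitted separately by the authors, and the difference between them was not tested.

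**Figure D5:**
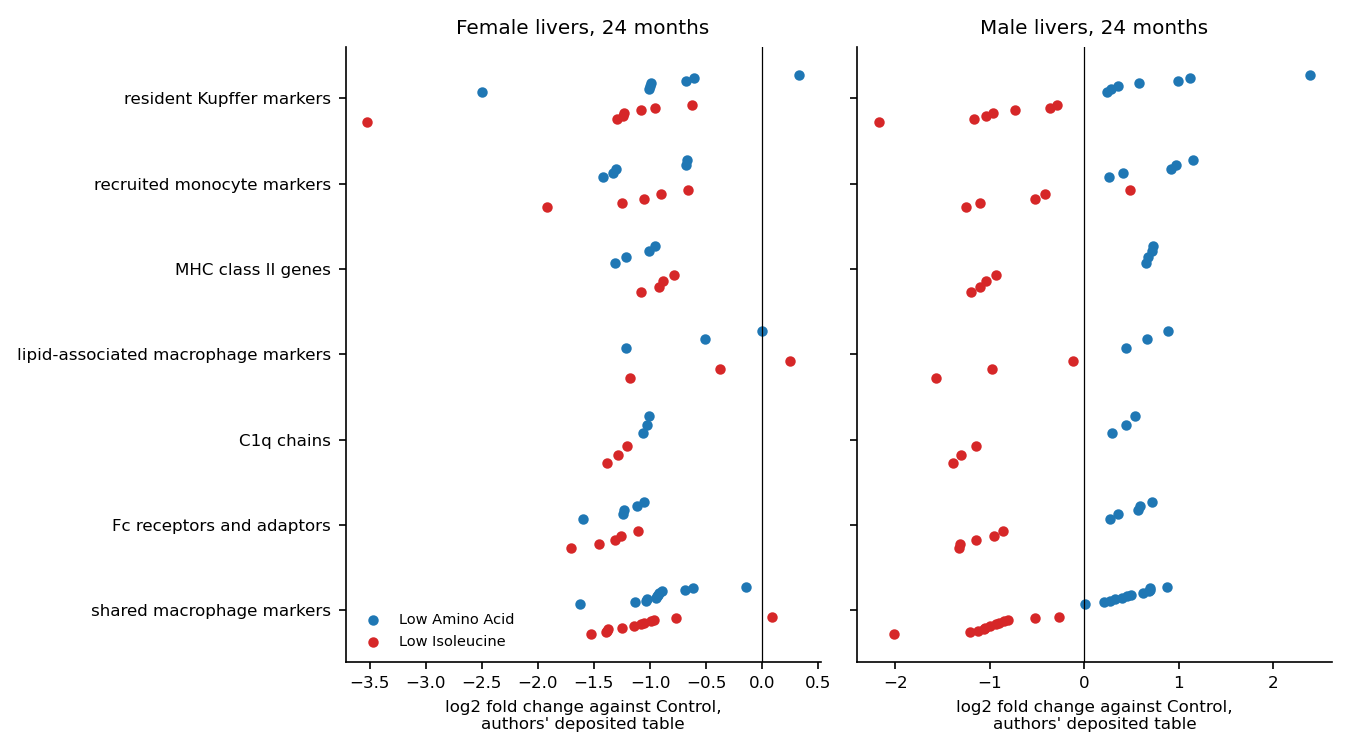
Diet differences at 24 months for the members by list, as log2 fold changes from the authors' deposited tables, in females and in males. On Low Amino Acid 38 of 39 members are negative in females and all 39 are positive in males, and on Low Isoleucine 37 and 38 of 39 are negative.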

How the data were processed

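Female liver RNA was measured by RNA-seq of stranded, polyA-enriched libraries run on 2 lanes, per the labels' protocols. The authors deposited estimated counts per gene with no normalization, going by the values, and these were rounded to whole numbers for the tests. The authors' deposited comparison tables give log2 fold changes with p-values and adjusted p-values, per the file headers. Their F statistic, a score per gene deposited by the authors, was not used. The build GRCm38.p5, R 3.4.3, edgeR and limma are named in the submitters' processing notes, and no source used here names an aligner.

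Of 51912 lines, 17275 were filled under all columns and used. The 45 male columns were not used for results: fold changes of those columns correlated with the deposited ones at -0.00892 to 0.0152 across genes, against 0.877 to 0.914 for the 47 female columns. Counts were tested with edgeR 4.0.16 in R 4.3.3 (filterByExpr, TMM, glmQLFit and glmQLFTest, 1 mean per group over 6 groups, 46 libraries), with Benjamini-Hochberg adjustment over 12617 genes within each of 11 comparisons. SE was the absolute log2 fold change over the square root of F. List scores used log2 CPM with a prior count of 2. Per-kilobase levels used GENCODE M21 exon lengths, on GRCm38. DESeq2 1.42.0, limma 3.58.1 voom with quality weights, other normalization and filters, other sets of libraries and each library left out in turn were alternatives. The test was checked on simulated counts. Library totals of 7819974 to 27556894 counts set the precision of low members.

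The members, lists and tests were chosen with earlier results of these data known. Values in every group are given for the resident, recruited, MHC class II, lipid-associated and C1q genes and for the 8 other called members with the smallest p. At most 2 called genes per comparison are named of other lists, apart from Col1a1, Col3a1 and Reln for age on Control.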

Additional observations from a re-analysis of the deposited data

Results flagged for a closer look

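Of 228 groups of libraries examined, 37 genes and the resident minus recruited score in 6 groups each, 2 had a library far from the others by Dixon's gap at the 95% level. The gap was taken on the log2 scale, and chance flags about 5% of groups. Trem2 in the 24-month Control group was 3.50 CPM in replicate 3, and the next library was at 1.09 CPM. Fcer1g in the 6-month Low Isoleucine group was 1.79 CPM in replicate 4, below the next library at 3.63 CPM.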

How the results depend on the processing

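The number of members called kept within 1.5 times the main count, under every alternative fitted, for Low Amino Acid and Low Isoleucine minus Control at 6 months, Low Isoleucine minus Low Amino Acid at 24 months, age on Control and the Low Isoleucine interaction, apart from single libraries left out. For Low Amino Acid minus Control at 24 months the main count of 0 became 1 with DESeq2, 1 without the 5 neutrophil-high libraries, 27 without 24-month Low Amino Acid replicates 2 and 4 and Low Isoleucine replicates 2 and 5, and 0 to 2 with single libraries left out. For Low Isoleucine minus Control at 24 months the main count of 1 became 7 with voom, 0 with libraries of the same age, 0 with only the groups compared, 5 without the lowest-total library, 4 with DESeq2, 30 without those 4 libraries and 0 to 8 with single libraries left out. For Low Isoleucine minus Low Amino Acid at 6 months it went from 0 to 11 with libraries of the same age and 16 with only the groups compared. For age on Low Amino Acid it went from 0 to 1 with voom and 1 with only the groups compared. For age on Low Isoleucine it went from 13 to 2 with voom, 5 with only the groups compared, 5 without the lowest-total library, 7 without the neutrophil-high libraries, 20 with DESeq2, 0 without the 4 libraries and 5 to 22 with single libraries left out. The Low Amino Acid interaction went from 0 to 21 without the 4 libraries. For age on Control the count was 32, and 22 to 34 with single libraries left out. The call that reversed was Marco between ages on Low Isoleucine, at -0.23 with voom. The cause was not tested. The 4-library alternative and the resident list without Marco were chosen after seeing the data. No paired analysis was possible because the replicate numbers name libraries within a group and do not link mice across groups.

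Members with few counts, such as Gpnmb, Trem2, Ms4a7, Cx3cr1 and Itgax, carry a larger relative counting error than members with many. The lowest counts of Cx3cr1 and Itgax, both in the recruited score, were 4 and 10. The wide 24-month groups enter the spread used for the 6-month comparisons. Likewise the narrower 6-month groups enter the spread used for the 24-month diet comparisons. For both diets against Control at 24 months, fits of the 24-month libraries alone gave fewer members at an unadjusted p under 0.05. With 7 or 8 livers per group, a difference that missed the threshold was not shown to be absent.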
